A study of Homo sapiens with 6 samples.

Results

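Junction genes, the genes of claudins and other tight junction proteins, of cadherin-related proteins, of desmosomes and of EPCAM, were followed in the established cell line LS180, which comes from a human colorectal adenocarcinoma. Members were all genes whose symbol on the array platform fits a set of family names (CLDN, OCLN, MARVELD, TJP, F11R, CGN, CDH, CDHR, DSG, DSC, DSP, JUP, PKP, the alpha and delta catenins, connexins and EPCAM). The rule uses names and no measured value, but the families were picked with results of these data known. They came to 54 of 14812 genes, each with 1 probe set. RefSeq lists 108 symbols that fit these names, so 54 others were not analysed here. These include E-cadherin and every other classical cadherin, since only CDH23 and CDH26 of 23 CDH symbols were among the members. The 9 symbols of the alpha and delta catenin families and the 20 connexin symbols had 0 members, and F11R was not analysed either. The results therefore concern tight junctions, desmosomes and brush border cadherins rather than adherens or gap junctions.

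Cells had been given an siRNA against CTNNB1 (beta-catenin), against the transcription factor MYC, or against MYU, a long non-coding RNA listed as VPS9D1-AS1. Every knockdown has 1 Affymetrix array and 1 array of LS180 cells with control siRNA that carries the knockdown's name, which makes 6 arrays in 3 pairs. The labels used here do not state the siRNA sequences or the time after transfection, and a treatment tag of the CTNNB1 array reads CTNNB2 where its title reads CTNNB1. The titles of the controls in the CTNNB1 and MYC pairs share a number, so these pairs may share control cells. Values are log2 differences, knockdown array minus control array. The deposited values had been centred on 0 within a pair, so expression levels are unknown, and a member near 0 may be steady or not expressed. With 1 array on each side there is no replicate check and no test, the number of arrays limits the precision, and "higher" and "lower" describe these arrays.

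Tight junctions seal the space between epithelial cells near their apex. Claudins form their strands, occludin and some other MARVEL-domain proteins sit within them, and the ZO proteins (TJP genes) and cingulin tie them to actin. Desmosomes join the keratin filaments of neighbouring cells through desmogleins and desmocollins, with plakoglobin, plakophilins and desmoplakin as the inner plaque. Plakoglobin (JUP) is a close relative of beta-catenin and is found in adherens junctions too. In the intestine CDHR2 and CDHR5 bridge the tips of microvilli and thereby pack the brush border.

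The targeted transcripts and the spread of all genes set the scale. MYC had a value of -1.18 in its own pair and -2.38 in the CTNNB1 pair, and CTNNB1 itself was not analysed here. VPS9D1-AS1 had -0.50 in the MYU pair. It was no lower there than with CTNNB1 siRNA, where it had -0.53, and its value with MYC siRNA was -0.24. MYC had 0.04 in the MYU pair. The standard deviation over all genes was 0.51 with CTNNB1, 0.28 with MYC and 0.20 with MYU siRNA. The lowest and highest 2.5% of genes began at -1.26 and 1.06, at -0.66 and 0.56, and at -0.46 and 0.40, in the same order.

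With CTNNB1 siRNA, junction genes stood on the high side. CDHR5, TJP3, CLDN23, CLDN1, CDHR2, JUP, CGN, DSC2 and OCLN were at least 2-fold higher, by 2.21-fold (OCLN) to 5.50-fold (CDHR5). These 9 of 54 members (16.7%) compare with 2.80% of all genes, while 0 members were 2-fold lower, against 4.14% of all genes. At 1.5-fold 13 members (24.1%) were higher and 0 lower, against 6.44% and 9.80% of all genes, the added members being CLDN4, TJP1, CLDN3 and EPCAM. The nearest members on either side of the 2-fold line were OCLN (1.14) and CLDN4 (0.90). The median of the 54 was 0.08, against 0 for all genes. Of the members 37 lay above 0 and 17 below, against 7240 and 7236 of all genes. Within 1.5-fold lay 41 of the 54, so the counts at 1.5-fold and 2-fold came from a minority.

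With MYC siRNA, CDHR5 (1.45) and CLDN1 (1.09) were at least 2-fold higher, which is 2 of 54 members (3.70%) against 0.412% of all genes, and 0 were 2-fold lower against 0.446%. CGN (0.63) joined them at 1.5-fold, giving 3 members against 2.15% of all genes, and the desmoglein gene DSG2 (-0.62) was the only member 1.5-fold lower, against 3.63%. With MYU siRNA 0 of 54 members were 2-fold apart, beside 0.0608% of all genes higher and 0.0945% lower. At 1.5-fold the count was also 0 in either direction, beside 0.668% and 1.21%, and values ran from -0.48 (CDHR5) to 0.40 (JUP). Medians of the members were 0.01 (MYC siRNA) and -0.01 (MYU siRNA).

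Markers of cell types were read beside these values. Of 10 intestinal epithelial markers 5 were 2-fold higher in the CTNNB1 pair, led by KRT20 (4.39), a keratin of mature colonocytes, against 2.80% of all genes. With MYC siRNA 1 of the 10 was 2-fold higher, KRT20 (1.16), against 0.412%, and with MYU siRNA 0 were. In the MYU pair KRT20 (-0.73) and GPA33 (-0.80) were 1.5-fold lower, 2 of 10 against 1.21% of all genes. EPCAM is among the 10. Values of the list ran from -0.42 (CDX2) to 4.39, from -0.40 to 1.16 and from -0.80 (GPA33) to 0.20 in the 3 pairs. Of 4 mesenchymal markers LUM (2.78) was 2-fold higher in the CTNNB1 pair, against 2.80% of all genes. VIM, DCN and THY1 lay between -0.04 and 0.01 there. Of 5 endothelial, 2 leukocyte and 5 squamous markers 0 were 2-fold apart in any pair. The shares of all genes are at most 4.14% in a direction, and with so few markers counts of 0 are near them. At 1.5-fold LYZ (0.74), 1 of 2 leukocyte markers, was higher in the MYU pair, against 0.668%. ERG (-0.60), 1 of 5 endothelial markers, was lower in the MYC pair, against 3.63%. CLDN5 of the endothelial and DSG3 of the squamous list are members too. Whether these shifts have a part in the values of the junction genes was not tested, and a change in the share of a cell type cannot be told apart from a change of RNA per cell.

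**Figure D1:**
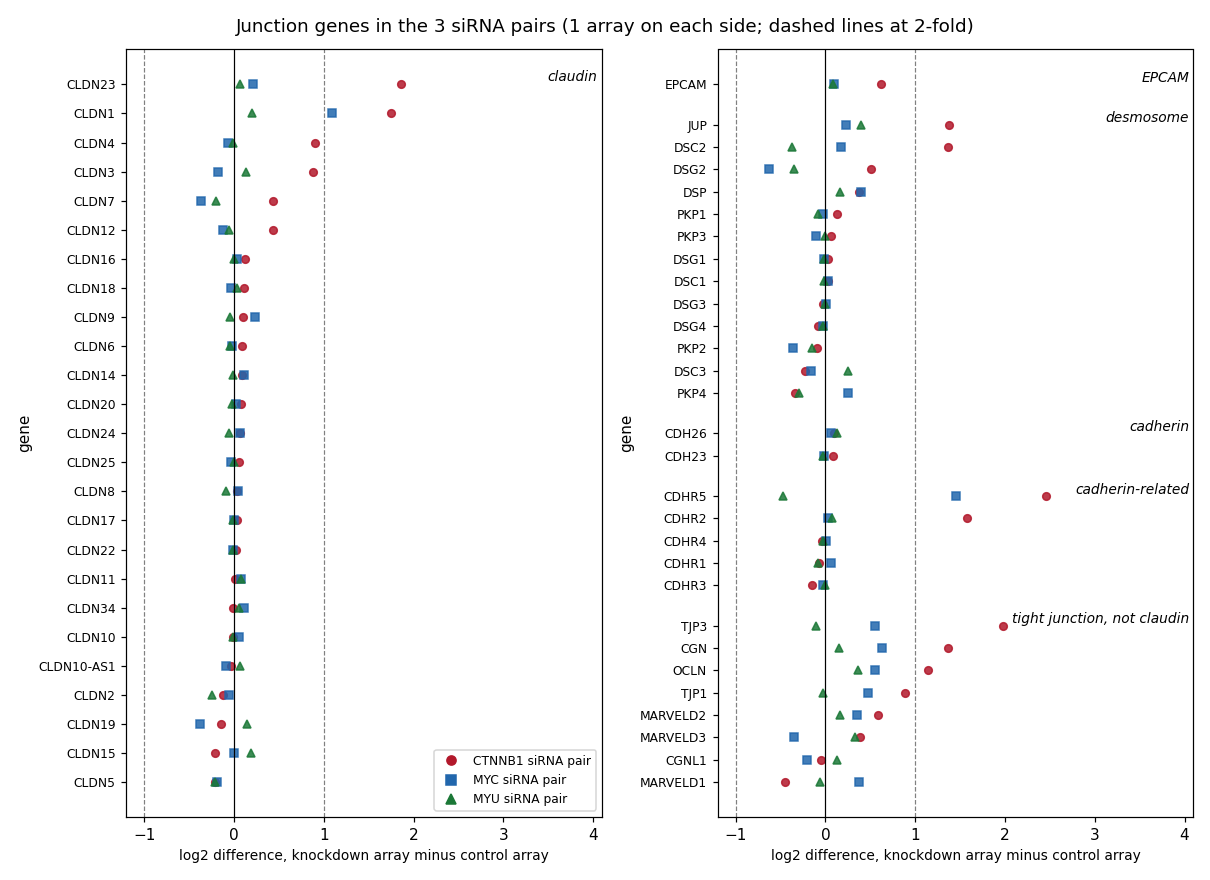
Log2 difference (knockdown array minus control array, horizontal axis) of each of the 54 junction genes in the CTNNB1, MYC and MYU siRNA pairs, grouped by junction type and ordered by the CTNNB1 pair. The 9 genes right of the 2-fold line in the CTNNB1 pair are spread over claudins, other tight junction genes, cadherin-related genes and desmosome genes, and CDHR5 and CLDN1 lie right of it in the MYC pair too.

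**Figure D2:**
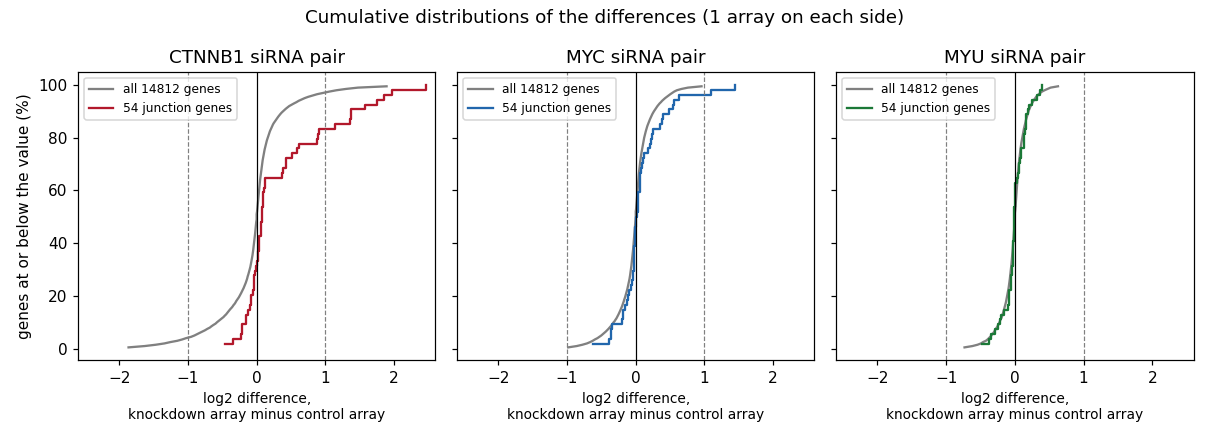
Share of genes at or below each log2 difference (vertical axis, percent) for the 54 junction genes and for all genes, in the CTNNB1, MYC and MYU siRNA pairs; the curve of all genes is drawn from its 0.5th to its 99.5th percentile. In the CTNNB1 pair the upper part of the curve of junction genes lies right of that of all genes, up to 2.46, and in the MYU pair it ends at 0.40.

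Claudins determine which ions and solutes pass between cells. The rule gave 25 of them, 1 being the antisense RNA CLDN10-AS1, and 2 were 2-fold higher in the CTNNB1 pair, against 2.80% of all genes. CLDN23, a claudin of mature colonic epithelium, had a deposited value of 0.93 in the CTNNB1 knockdown array and -0.93 in its control array, a difference of 1.86 or 3.63-fold. Its differences in the MYC and MYU pairs were 0.21 and 0.06. CLDN1, a sealing claudin, stood at 0.87 and -0.87 in the arrays of the CTNNB1 pair, a difference of 1.75 or 3.36-fold. In the MYC pair its arrays held 0.55 and -0.55, a difference of 1.09 or 2.13-fold, which 0.257% of all genes exceeded. In the MYU pair CLDN1 had a value of 0.20. CLDN1 was thus the claudin with the highest value in the MYC and the MYU pair, and second to CLDN23 in the CTNNB1 pair.

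CLDN3, CLDN4 and CLDN7, claudins found along most of the gut epithelium, showed another order. CLDN4 had 0.90 with CTNNB1 siRNA, and -0.07 and -0.01 in the MYC and MYU pairs. CLDN3 had 0.88, -0.18 and 0.13, close to CLDN4 in the CTNNB1 pair. CLDN7 had 0.43, -0.365 and -0.20, so that it lay above 0 with CTNNB1 siRNA and below 0 in the other pairs. CLDN12, singled out after its values were seen, had 0.43, -0.13 and -0.05. The other 19 claudin transcripts lay between -0.21 (CLDN5, the claudin of endothelium) and 0.12 (CLDN16, a claudin of the kidney) in the CTNNB1 pair. They lay between -0.38 (CLDN19) and 0.23 (CLDN9) with MYC siRNA, and between -0.25 (CLDN2, which forms a cation pore) and 0.18 (CLDN15, likewise a pore-forming claudin of the gut) with MYU siRNA. The median of all 25 was 0.06, -0.01 and -0.01.

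Another 8 genes were grouped with tight junctions by their names. Of these, 3 were 2-fold higher with CTNNB1 siRNA and 4 at 1.5-fold, against 2.80% and 6.44% of all genes, with a median of 0.74. TJP3, which encodes the scaffold ZO-3, stood at 0.99 in the knockdown array and -0.99 in the control array, a difference of 1.97 or 3.93-fold, and at 0.55 and -0.11 in the MYC and MYU pairs. CGN, the gene of cingulin, stood at 0.68 and -0.68, a difference of 1.37 or 2.58-fold. Its values of 0.63 with MYC siRNA and 0.16 with MYU siRNA kept it above 0 in all 3 pairs. OCLN, the gene of occludin, stood at 0.57 and -0.57, a difference of 1.14 or 2.21-fold, with 0.55 and 0.36 in the MYC and MYU pairs. TJP1, the gene of the scaffold ZO-1, had 0.89, 0.48 and -0.03.

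The MARVEL-domain relatives of occludin differed among themselves. MARVELD2, the gene of tricellulin at corners where cells meet, had 0.58, 0.36 and 0.17, which left it just short of 1.5-fold in the CTNNB1 pair. MARVELD3 had 0.38, -0.35 and 0.33, and MARVELD1 had -0.45, 0.38 and -0.06, the lowest value of any member in the CTNNB1 pair. CGNL1, the gene of paracingulin, lay at -0.05, -0.21 and 0.13. With MYC siRNA the 8 tight junction genes that are not claudins had a median of 0.43, against 0 for all genes. Of the 8, 0 were 2-fold apart, against 0.412% of all genes higher and 0.446% lower. With 8 genes, a count of 0 is near these shares. CGN alone was 1.5-fold higher, against 2.15% of all genes. With MYU siRNA the median of the 8 was 0.14.

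The cadherin-related genes held the member with the largest difference. CDHR5 stood at 1.23 in the CTNNB1 knockdown array and -1.23 in its control, a difference of 2.46 or 5.50-fold, which 0.176% of all genes exceeded. In the MYC pair its arrays held 0.73 and -0.73, a difference of 1.45 or 2.74-fold, exceeded by 0.0540% of genes. In the MYU pair the order turned, with -0.24 in the knockdown array and 0.24 in the control, a difference of -0.48, the lowest value of all members there. CDHR2, its partner in the microvillar bridge, stood at 0.79 and -0.79 in the CTNNB1 pair, a difference of 1.57 or 2.98-fold, but at 0.03 and 0.07 in the MYC and MYU pairs. CDHR1, a cadherin of photoreceptors, CDHR3, a cadherin of airway cells, and CDHR4 lay between -0.15 and 0.06 in all 3 pairs. CDH23 and CDH26, the 2 members with plain cadherin symbols, lay between -0.03 and 0.13.

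Of 13 desmosome genes, 2 were 2-fold higher in the CTNNB1 pair, against 2.80% of all genes, and 0 in the other pairs, against 0.412% and 0.0608%. JUP stood at 0.69 and -0.69 in the arrays of the CTNNB1 pair, a difference of 1.38 or 2.59-fold, and had 0.23 with MYC siRNA and 0.40 with MYU siRNA, the highest of all members in that pair. DSC2, the desmocollin of simple epithelia, stood at 0.68 and -0.68, a difference of 1.36 or 2.57-fold. Its other values were 0.17 (MYC siRNA) and -0.38 (MYU siRNA). DSG2, the desmoglein of simple epithelia, had 0.51 in the CTNNB1 pair but -0.62 and -0.35 with MYC and MYU siRNA, the first of these being 1.54-fold lower. The cadherins of the gut desmosome thus lay above 0 with CTNNB1 siRNA and below 0 with MYU siRNA, while they parted in the MYC pair.

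DSP, the gene of desmoplakin, had 0.37, 0.40 and 0.16. The plakophilin genes lay lower, with PKP2 at -0.10, -0.37 and -0.15, PKP3 at 0.06, -0.11 and 0, and PKP4 at -0.34, 0.25 and -0.29. Among the desmosomal cadherins of skin and other stratified epithelia, DSG1, DSG3, DSG4 and DSC1 lay between -0.09 and 0.03 in all 3 pairs, while DSC3 had -0.23, -0.16 and 0.25. PKP1, a plakophilin of stratified epithelia, had 0.12, -0.03 and -0.09. EPCAM, a surface glycoprotein of epithelial cells that binds claudins, had 0.62, 0.09 and 0.09, or 1.54-fold higher in the CTNNB1 pair.

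Promoters of members that were 2-fold higher with CTNNB1 siRNA were examined for short motifs, with the 250 bases before each RefSeq start (GRCh38.p14) as the window. RefSeq's table held 63 windows for 43 members and 12 windows for 7 of the 9 leading genes, some genes having several starts. The sequences of the windows below are shown for 3 tight junction genes with a match and, for comparison, for CLDN1, which had none, each at its outermost start. They run 5′ to 3′ on the gene's strand, at chr1:151511137-151511386 (+) for CGN, chr19:3708134-3708383 (+) for TJP3, chr5:69492297-69492546 (+) for OCLN and chr3:190322447-190322696 (-) for CLDN1. Capitals mark a match to a searched motif.
CGN: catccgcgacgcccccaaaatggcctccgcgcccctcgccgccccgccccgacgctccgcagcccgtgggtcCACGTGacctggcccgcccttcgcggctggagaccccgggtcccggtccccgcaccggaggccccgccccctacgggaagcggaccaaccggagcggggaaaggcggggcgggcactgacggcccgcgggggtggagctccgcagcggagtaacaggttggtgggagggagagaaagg
TJP3: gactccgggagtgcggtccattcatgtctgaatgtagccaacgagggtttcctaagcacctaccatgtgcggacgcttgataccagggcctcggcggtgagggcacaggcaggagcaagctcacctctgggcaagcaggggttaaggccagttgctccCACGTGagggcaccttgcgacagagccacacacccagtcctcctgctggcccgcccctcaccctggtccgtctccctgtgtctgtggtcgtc
OCLN: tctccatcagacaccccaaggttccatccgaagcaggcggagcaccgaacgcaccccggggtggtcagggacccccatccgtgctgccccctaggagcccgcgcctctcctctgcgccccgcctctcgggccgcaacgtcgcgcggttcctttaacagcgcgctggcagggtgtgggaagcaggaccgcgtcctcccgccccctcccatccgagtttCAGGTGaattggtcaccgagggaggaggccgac
CLDN1: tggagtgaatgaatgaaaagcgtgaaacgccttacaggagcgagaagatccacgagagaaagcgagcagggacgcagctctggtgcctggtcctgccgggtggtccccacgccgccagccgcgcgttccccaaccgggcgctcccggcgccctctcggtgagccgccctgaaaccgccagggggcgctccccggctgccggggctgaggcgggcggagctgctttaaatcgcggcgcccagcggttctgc

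The E-box CACGTG, the core site of MYC with its partner MAX, was found on either strand in 2228 of 35116 windows (6.34%) and in 2 of the 12 windows of leading genes, those of CGN and TJP3 shown above. The CGN window has it 178 bases before the start and the TJP3 window 92 bases before. Over all 63 windows of members 3 held it (4.76%). The motif of TCF and LEF factors, which bind beta-catenin, was searched as CTTTGAT (2.26% of all windows) and as CTTTGAA (3.80%), and 0 of the 12 windows held either. The Snail-type E-box CAGGTG was found in 17.5% of all windows and in 6 of the 12, among them OCLN at 33 bases before the start. It was also present in windows of CDHR2, DSC2, JUP and TJP3 and in both OCLN windows, and 15 of all 63 windows of members held it (23.8%). The grainyhead motif AACCGGTT was found in 0.117% of all windows and in 0 of the 12. All motifs were searched on both strands. A match says only that these letters occur in the window, and windows of a gene are not independent.

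Several members neighbour each other on a chromosome, in 7 clusters with 19 members by RefSeq gene order. Neighbours matched in some clusters and not in others. CLDN3 and CLDN4 on chromosome 7 had values of 0.88 and 0.90 in the CTNNB1 pair, and MARVELD2 and OCLN on chromosome 5 had 0.58 and 1.14, with no other coding gene between the members of either cluster. CLDN1 and CLDN16, likewise next to each other on chromosome 3, had 1.75 and 0.12. The desmosomal cadherins form a row of 7 genes on chromosome 18. In it DSC2 (1.36) and DSG2 (0.51), close to its ends, had the high values in the CTNNB1 pair, while the 4 genes between them lay between -0.09 and 0.03 and DSC3 had -0.23.

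**Figure D3:**
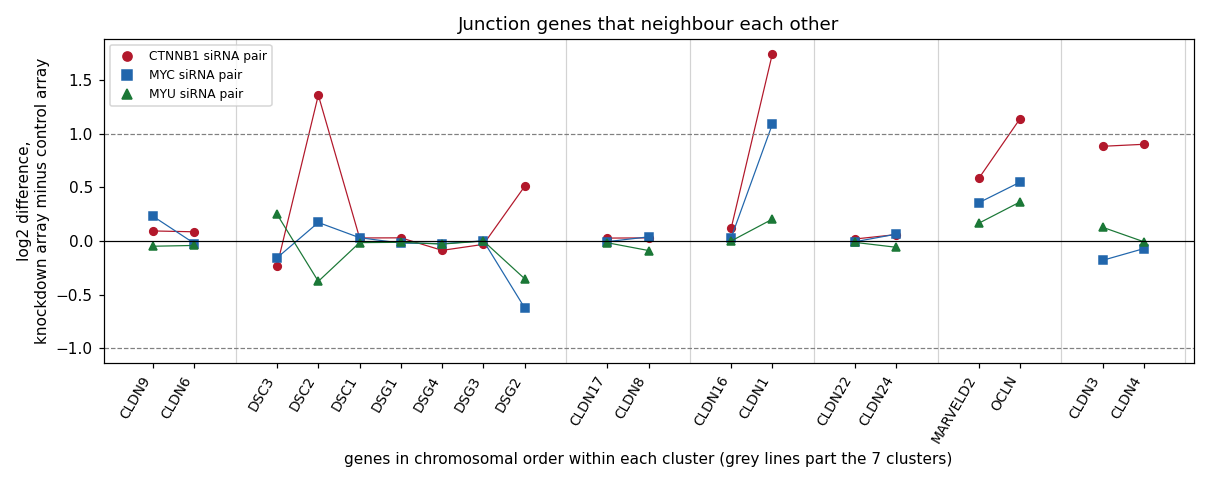
Log2 difference (knockdown array minus control array, vertical axis) of the 19 junction genes that neighbour another, in chromosomal order within the 7 clusters, for the CTNNB1, MYC and MYU siRNA pairs. CLDN3 and CLDN4 lie together in the CTNNB1 pair, whereas DSC2, DSG2 and CLDN1 stand apart from their neighbours.

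Genes that work with these junctions were followed as lists. CDHR2 and CDHR5 are anchored in the microvillus by a complex of MYO7B, USH1C, ANKS4B and CALML4, of which USH1C was not analysed here. In the list of this complex and other brush border genes, 7 of 10 measured genes were 2-fold higher in the CTNNB1 pair and 0 lower, against 2.80% and 4.14% of all genes, with a median of 1.04. The motor protein gene MYO7B had 2.10, 0.87 and -0.15 with CTNNB1, MYC and MYU siRNA, EPS8, an actin-capping protein gene, 1.32, 0.24 and 0.16, CALML4 1.20, 0.50 and 0.01, ANKS4B, a scaffold protein gene, 0.77, -0.20 and -0.11, and PLS1, an actin-bundling protein gene, 1.19, 0.27 and 0.22. In the MYC pair 0 of the 10 were 2-fold apart, with a median of 0.26, and in the MYU pair all lay within 1.5-fold, with a median of 0.06.

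Hemidesmosomes tie keratin to the matrix below the cell. Of 3 genes measured, 2 were 2-fold higher with CTNNB1 siRNA, DST (1.85) and PLEC (1.61), with CD151 at 0.98, against 2.80% of all genes. In the MYC pair DST had 1.03, PLEC 0.08 and CD151 0.70, DST being 2-fold higher against 0.412% of all genes, and in the MYU pair they had -0.33, -0.24 and 0.36. Of 17 polarity genes LLGL2 (1.41) and PARD6B (1.25) were 2-fold higher in the CTNNB1 pair, against 2.80% of all genes, and the scaffold gene PATJ (1.10) in the MYC pair, against 0.412%, with medians of -0.01 and -0.02. Of 12 nectin, JAM and angulin genes NECTIN2 alone was 2-fold higher in the CTNNB1 pair, at 1.35, against 2.80% of all genes. At 1.5-fold 4 of the 12 were higher there, against 6.44%. LSR, an angulin at corners where cells meet, had 0.88, 0.21 and 0.39 with CTNNB1, MYC and MYU siRNA. The other angulins differed from it, ILDR1 having 0.61, 0.28 and -0.43 and ILDR2 -0.02, -0.09 and 0.03.

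Transcription factors that are known to act on junction genes were also read. Of 10 factors of epithelial-mesenchymal transition, 0 were 1.5-fold apart in any pair. Of all genes 6.44% were 1.5-fold higher and 9.80% lower with CTNNB1 siRNA. The shares were 2.15% and 3.63% in the MYC pair and 0.668% and 1.21% in the MYU pair. With 10 genes, a count of 0 is not far from these shares. SNAI1 had 0, -0.17 and 0.17, SNAI2 0.16, -0.08 and 0.20 and ZEB1 0, 0.01 and 0.01. Values of the list ran from -0.09 to 0.25, from -0.17 to 0.10 and from -0.14 to 0.25 with CTNNB1, MYC and MYU siRNA. Of 12 epithelial factors 0 were 2-fold apart in any pair. In the CTNNB1 pair 2.80% of all genes were 2-fold higher and 4.14% lower. The shares were 0.412% and 0.446% in the MYC pair and 0.0608% and 0.0945% in the MYU pair, so 0 of 12 is near them. KLF4 (0.85) and KLF5 (0.62) were 1.5-fold higher in the CTNNB1 pair, against 6.44% of all genes, while CDX2 had -0.42 there. With MYC siRNA 9 of the 12 lay below 0 and 3 above, with a median of -0.17. Of all 14812 genes 7312 lay below 0 and 7104 above in that pair, with a median of 0. GRHL2 had -0.20, -0.05 and 0.03. Of 7 measured genes of cadherin shedding and the junctional actin belt, LIMA1 (0.92) and VCL (0.61) were 1.5-fold higher in the CTNNB1 pair. This compares with 6.44% of all genes. In the MYU pair VCL had -0.56, the lowest value of the 7. ADAM17 (-0.77) was 1.5-fold lower in the MYC pair, against 3.63% of all genes.

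**Figure D4:**
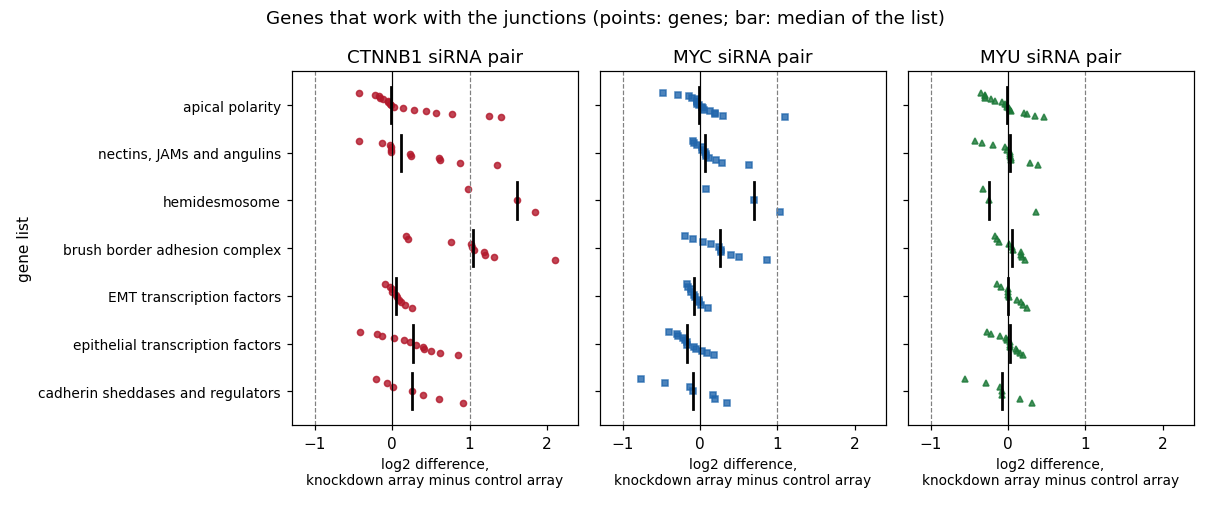
Log2 difference (knockdown array minus control array, horizontal axis) of single genes (points) and the median (bar) of 7 lists of genes that work with junctions, in the CTNNB1, MYC and MYU siRNA pairs. The median of the brush border list is 1.04 in the CTNNB1 pair and 0.06 in the MYU pair. The factors of epithelial-mesenchymal transition stay within 1.5-fold in all 3, as most of all genes do.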

How the data were processed

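TRIsure RNA of 6 samples was biotin-labelled for Affymetrix arrays, per the labels' protocols. The deposited log2 values were already centred on 0 for a knockdown array and its control: they cancel within 1e-06 for every probe set. The log base was taken as 2. How the authors corrected background, normalized arrays and summarised probes is not given in the sources used here.

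Of 44629 probe sets 15835 have 1 gene symbol in the platform annotation. The other 28794 are unlisted or have more than 1 symbol, and were not used. The identifiers of the 15835 all matched RefSeq (GRCh38.p14), giving 14812 genes, with the mean taken over the probe sets of a gene. All 54 members have 1 probe set. The difference was knockdown minus the control array named for it. Genes were counted at 2-fold, with 1.5-fold as an alternative. With 1 array per group no test was run, and no array could be left out.

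Members, gene lists and motifs were chosen with earlier results of these data known. Named were members at least 1.5-fold apart in any pair, 13 epithelial genes where measured, and the ends of ranges. Further members of each junction type were named without such a rule. Of each list up to 4 genes were named, with ANKS4B added to the brush border list as part of the complex. The code was tested on simulated data. Python 3.11.15, numpy 2.4.6, pandas 2.3.3 and matplotlib 3.10.9 were used.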

Additional observations from a re-analysis of the deposited data

Results flagged for a closer look

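Members were marked where they lay on opposite sides of 0 in 2 pairs, by at least 1.2-fold in each, which 6 genes did in 9 comparisons. The difference between pairs was not tested, since each rests on 1 array per side, and the fold was chosen after the data had been seen. CDHR5 had the widest gap, 2.94 between the CTNNB1 pair (2.46) and the MYU pair (-0.48), and 1.93 between the MYC pair (1.45) and the MYU pair. DSC2 was apart by 1.74 between the CTNNB1 pair (1.36) and the MYU pair (-0.38). DSG2 was apart by 1.13 between the CTNNB1 pair (0.51) and the MYC pair (-0.62), and by 0.86 between the CTNNB1 and MYU pairs. The gap of CLDN7 between the CTNNB1 and MYC pairs was 0.79. MARVELD1 went the other way, with -0.83 for the CTNNB1 pair minus the MYC pair. MARVELD3 had a gap of 0.73 between the CTNNB1 and MYC pairs and of -0.67 for the MYC pair minus the MYU pair.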

How the results depend on the processing

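Counts and medians of the 54 members were recomputed with each array centred on its median, with the probe set nearest to 0 or farthest from 0 for a gene, and with probe sets in place of genes. None of these moved a count, and the median of the CTNNB1 pair moved from 0.08 to 0.07 with centring. As every member has 1 probe set, the choice of probe set could not move them. At 1.5-fold the count of lower members in the MYC pair went from 0 to 1 (DSG2). When members were counted in the lowest and highest 2.5% of all genes of a pair, the MYU pair had 1 higher member (JUP) and 1 lower (CDHR5). JUP lay almost on the limit, at 0.395297 against 0.395281, and CDHR5 at -0.477 against -0.464. The other counts kept within 1.5 times. Among protein-coding genes alone 3.37% were 2-fold higher and 4.94% lower in the CTNNB1 pair. Leaving out 10 members (the antisense RNA and genes of squamous epithelium, kidney or photoreceptors), a choice made after the data had been seen, left 9 of 44 members 2-fold higher in the CTNNB1 pair. Every value is already a difference within a pair, and no test with the pair as a block could be run, since each group has 1 array. A filter on low signal, which needs levels, was not run. The number of arrays and the missing levels limit every value.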

Other observations

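For each of the 9 leading members the nearest measured coding gene that is not itself a junction gene was read on either side, by RefSeq gene order, 18 in all. Other junction genes and unmeasured genes were passed over, with up to 9 coding genes between (OCLN and SERF1A). In the CTNNB1 pair 0 of the 18 were 2-fold apart, against 2.80% of all genes higher and 4.14% lower. With 18 genes, a count of 0 is near these shares. Their median was 0.04, with a range from -0.87 (SERF1A, after OCLN) to 0.69 (P3H2, before CLDN1). In the MYC pair P3H2, a collagen-modifying hydroxylase gene, had the highest value of the 18, at 0.84, beside CLDN1 at 1.09. IRF7, an interferon response gene before CDHR5, had 0.56, 0.19 and -0.24 with CTNNB1, MYC and MYU siRNA, and CDHR5 had 2.46, 1.45 and -0.48. DRD4, on its other side, had -0.21, 0.03 and 0.01. TMEM207, on the other side of CLDN1, had 0.04, -0.06 and 0.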
